A study of Mus musculus with 4 samples.

Results

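Gata6 binding was examined at 5 gene loci of the AP-1 and ATF families in primary mouse keratinocytes: Atf3, Fos, Jun, Junb and Fosl2. The loci were defined as windows of build mm9 around approximate gene positions, given to the nearest 10 kb, and every listed Gata6 peak with its midpoint in a window was taken. This gave 32 peaks, 0.264% of the list, which held 12105 others, with 10 at Atf3, 7 at Junb, 6 at Fosl2, 5 at Fos and 4 at Jun. The windows were chosen by gene position with the peak counts known, and Atf3 was selected on a group of 4 close peaks, so counts, spacing and name numbers are given as a description and without a test.

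Gata6 is a zinc-finger transcription factor that binds GATA sequences. AP-1 is a dimer of basic leucine zipper proteins, usually one of the Fos family (Fos, Fosl2 and others) with one of the Jun family (Jun, Junb and others), and it binds the sequence TGANTCA. Atf3 is a stress-induced protein of the same structural class that pairs with Jun proteins and with itself. In epidermis AP-1 members are known for roles in keratinocyte proliferation, differentiation and inflammation.

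The Gata6 ChIP group comprised 2 libraries, precipitated with an R&D Systems antibody and with the Cell Signaling antibody D61E4. The controls were 1 library precipitated with a Flag antibody and 1 input library. All 4 libraries came from dorsal skin keratinocytes of C57BL6/CBA background that carried the K14deltaNLef1 transgene, named for the keratin 14 promoter of basal epidermal cells and an N-terminally truncated Lef1, and that were infected with a lentivirus for overexpression of Gata6. For one Gata6 library the transgene name ends in an added N, taken here as the same genotype. The sites are therefore those of overexpressed and any endogenous Gata6, and no library from cells without the virus or without the transgene was analysed here. The cells were grown on irradiated 3T3-J2 fibroblasts, which are also mouse cells, so feeder DNA cannot be told apart in the list. The list holds the overlap intervals with no score and no value per library, so peak strength, agreement between the antibodies and the level over Flag or input cannot be given for any site, and it holds no expression values with which to check the cell type. Each peak carries a name number on its chromosome. Its meaning is not stated in the labels or the list.

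Atf3 had the fullest window. It held 10 peaks between 192800000 and 193200000 on chromosome 1, a density of 25 per Mb against 4.66 per Mb on the rest of the chromosome, or 5.36 times as much. Of 483 tiles of 400 kb along chromosome 1, 11 (2.28%) held 10 or more peaks, and over all chromosomes 2.41% did. The median tile of chromosome 1 held 1 peak and the fullest 19.

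The Atf3 peaks lay in 3 close groups and 2 single sites. The group of 4 spanned 3.31 kb, from 192956336 to 192959649, and its centre lay 31.9 kb on the low-coordinate side of the approximate Atf3 position. Its members carried the numbers 127, 60, 234 and 369 in order of position, among 911 listed peaks of the chromosome. It consisted of 2 tight pairs, with midpoints 0.65 and 0.36 kb apart, and 2.15 kb between the pairs. The intervals were 155, 140, 114 and 144 bp wide. Of the 22 groups of exactly 4 peaks in the whole list, each within 5 kb of the next, this one was second in compactness, and chromosome 1 held 2 groups of 4 or more.

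On the other side of the Atf3 position lay a pair at 193007324 to 193010089, with numbers 79 and 785 and midpoints 2.61 kb apart, and a pair at 193017079 to 193017968, with numbers 1070 and 192 and midpoints 0.74 kb apart. Their centres were 18.7 and 27.5 kb from the Atf3 position. Each pair thus joined a low number with a high one. The remaining peaks, 192803307 to 192803452 and 192854997 to 192855112, stood alone, 187 and 135 kb from the Atf3 position, and had the high numbers 1634 and 1069. No peak lay within 10 kb of the approximate Atf3 position, and the nearest, number 79, was 17.4 kb away. That position marks no stated point within the gene. Atf3 is on the minus strand in GRCm38.p6, so its start is at its high-coordinate end, the side of number 79. The distance of number 79 from the Atf3 start was not determined.

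The numbers at Atf3 were mostly low. Numbers 60 and 79 were also the 60th and 79th lowest of the chromosome, so no lower number was missing from the list. By percentile among the listed numbers of chromosome 1, the peaks had a median of 29.3 and ranged from 6.59 to 89.8, and 5 of 10 fell in the lowest 25%, against 24.9% of all listed peaks in theirs. All but one of these 5 lay in the group of 4 or in the pair next to the Atf3 position. In the gene order of GRCm38.p6, Batf3, which encodes another basic leucine zipper partner of Jun proteins, is the second protein-coding gene from Atf3 towards lower coordinates, the side of the group of 4. Which of the genes there a peak lies nearest was not determined, since no mm9 annotation was used.

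**Figure D1:**
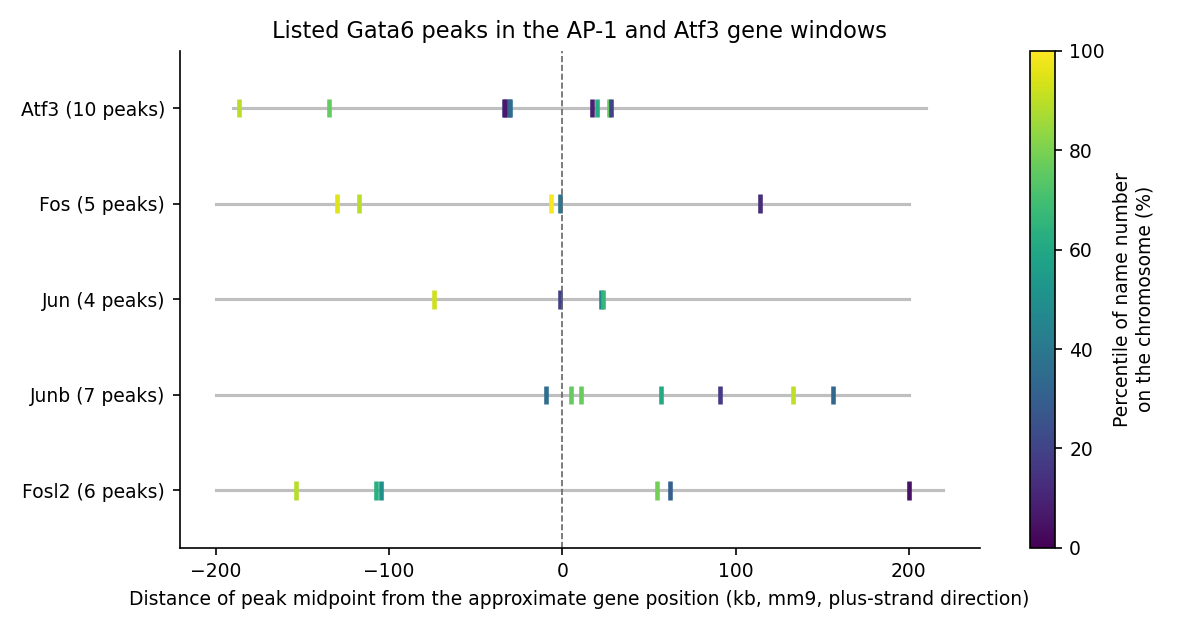
Positions of the 32 listed Gata6 peaks in the 5 windows. The horizontal axis is the distance of each peak midpoint from the approximate gene position in kb, grey lines are the windows, ticks are peaks and their colour is the percentile of the name number on the chromosome. Close peaks overlap in the drawing, as in the group of 4 at Atf3, which spans 3.31 kb, and the peaks nearest the Fos and Jun positions lie 1.58 and 1.09 kb away.

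Jun and Fos, the founding partners of AP-1, each had a peak close to the approximate gene position. At Jun the peak from 94718851 to 94718968 on chromosome 4, number 125, was 1.09 kb from that position. A pair of peaks followed on the high-coordinate side, at 94742487 to 94742632 (number 340) and 94743187 to 94743288 (number 568), with midpoints 0.68 kb apart and their centre 22.9 kb from the Jun position. The fourth peak, number 1179, lay 74.2 kb away on the low-coordinate side and was 41 bp wide. Jun thus had all 4 of its peaks within 100 kb of its position, and the one nearest to it had the lowest number of the 4, ranking 115th of 596. The percentile of the numbers ran from 19.3 to 92.3 with a median of 55.4.

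The Jun window, from 94520000 to 94920000, had the smallest count. Its 10.0 peaks per Mb compared with 3.91 per Mb on the rest of chromosome 4, a ratio of 2.56. Of 379 tiles on the chromosome, 64 (16.9%) held 4 or more peaks, and 21.3% of tiles on all chromosomes did, so a count of this size was common in the list.

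At Fos, 5 peaks lay between 86620000 and 87020000 on chromosome 12, and none had another within 5 kb. The density was 12.5 per Mb against 2.95 on the rest of this chromosome, a ratio of 4.23. Of 292 tiles on chromosome 12, 23 (7.88%) held 5 or more, and over all chromosomes 15.5% did. The peak from 86818347 to 86818497, number 171, was 1.58 kb from the approximate Fos position, and number 845, from 86813264 to 86813358, was 6.69 kb from it on the low-coordinate side.

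The Fos numbers were high for their chromosome, with a median percentile of 89.1. Numbers 845, 704 and 602 ranked 346th, 333rd and 312th of 350, and the first of them stood 5.11 kb from number 171, which ranked 133rd. The lowest number, 46, belonged to the peak farthest towards high coordinates, from 86934011 to 86934146 and 114 kb from the Fos position. In the gene order of GRCm38.p6, Jdp2 and then Batf are the protein-coding genes that follow Fos on that side. Jdp2 encodes a Jun-binding leucine zipper protein that represses AP-1 targets, and Batf encodes a Jun partner studied mainly in immune cells. Whether these genes lie inside the mm9 window was not determined, so its peaks are not assigned to Fos alone.

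The sequences before the annotated starts of Atf3, Fos and Jun are shown with the searched letters that they hold. None of them holds the AP-1 sequence TGANTCA. They are RefSeq sequences of 250 bases ending just before the start, in build GRCm38.p6, for Atf3 chr1:191183334-191183583 on the minus strand, for Fos chr12:85473640-85473889 on the plus strand and for Jun chr4:95052223-95052472 on the minus strand. These positions belong to another build than the mm9 peaks and cannot be compared with them, so no peak is placed on these sequences. Capitals mark matches, on either strand, to AGATAA or its shorter core GATAA (GATA sequences), to TGACATCA (a variant of the AP-1 and CRE sequences) or to TGACG, the half-site of the cAMP response element or CRE, which reads CGTCA on the other strand.
Atf3: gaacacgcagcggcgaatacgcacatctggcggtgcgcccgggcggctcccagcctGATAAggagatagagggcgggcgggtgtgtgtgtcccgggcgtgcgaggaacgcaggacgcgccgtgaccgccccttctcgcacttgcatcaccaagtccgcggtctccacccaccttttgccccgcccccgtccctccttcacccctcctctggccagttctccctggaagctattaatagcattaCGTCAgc
Fos: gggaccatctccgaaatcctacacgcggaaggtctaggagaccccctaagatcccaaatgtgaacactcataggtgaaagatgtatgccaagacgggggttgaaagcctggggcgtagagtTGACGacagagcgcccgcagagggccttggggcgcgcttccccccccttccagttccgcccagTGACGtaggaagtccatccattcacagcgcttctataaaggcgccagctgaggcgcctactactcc
Jun: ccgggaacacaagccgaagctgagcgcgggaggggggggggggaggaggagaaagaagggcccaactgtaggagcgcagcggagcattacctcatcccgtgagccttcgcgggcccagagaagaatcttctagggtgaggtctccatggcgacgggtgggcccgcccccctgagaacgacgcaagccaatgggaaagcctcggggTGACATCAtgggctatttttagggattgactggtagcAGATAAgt

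AGATAA was found in the Jun sequence alone of the 5 genes, 8 bases before the start, and in 9.99% of 32851 RefSeq promoter sequences of this length. The core GATAA, which overlaps it in Jun, was also found at Atf3, and 22.6% of all promoter sequences hold it. Other spellings of the GATA sequence were not searched in any of the 5. The printed Atf3 sequence reads TGATAA at its core match and also holds AGATAG, which is not marked. A sequence without AGATAA may therefore still hold a GATA sequence. The AP-1 sequence TGANTCA (6.75% of promoters) and the full CRE TGACGTCA (1.55%) had no exact match in any of the 5. The half-site TGACG was found at Fos in 2 places, at Atf3 on the other strand and at Junb, against 17.8% of all promoters, and TGACATCA was found at Jun, 45 bases before the start, against 2.93%. The full CRE contains the half-site, whereas TGACATCA holds neither the half-site nor the AP-1 letters. The core, the half-site and the Jun variant were chosen after the sequences were seen. The Fosl2 sequence held none of the 6. All 5 were rich in G and C, from 58.4% at Fos to 66.4% at Junb, against a median of 52.4% over all promoters. The letter pair CG occurred from 15 times, at Fos and Jun, to 24 times, at Atf3, against a median of 6 over all promoters. The quartiles over all promoters were 2 and 16, so the counts at Fos and Jun lay within them. TGACG contains CG, so the 17.8% does not describe promoters of like composition. All the matches are of letters in a short window, and they do not show where Gata6 or AP-1 binds.

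Junb, a Jun-family partner with a known role in restraining proliferation and inflammation in skin, had 7 peaks between 87300000 and 87700000 on chromosome 8. The density was 17.5 per Mb, against 4.66 on the rest of the chromosome, a ratio of 3.76. Of 319 tiles on chromosome 8, 22 (6.90%) held 7 or more peaks, and 7.97% did over all chromosomes. The peaks were spaced more widely than at Atf3: gaps between neighbours ran from 5.49 to 46.5 kb with a median of 28.8 kb, and none was under 5 kb.

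The peaks nearest the approximate Junb position were 87505054 to 87505212 (number 704, 5.13 kb away) and 87490682 to 87490755 (number 236, 9.28 kb away on the other side). Another followed at 87510552 to 87510694, number 705, 10.6 kb away. All of the other 4 lay on the high-coordinate side, 57.1 to 156 kb from the position, and no peak lay more than 9.28 kb towards low coordinates. The lowest number of the window, 111 (104th of 601), belonged to the peak from 87591174 to 87591333, 91.3 kb away. The percentiles had a median of 60.6 and ranged from 17.3 to 90.2. In the gene order of GRCm38.p6 the protein-coding genes next to Junb are Prdx2, a peroxiredoxin, on the low side and Hook2 on the high side.

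Fosl2, which encodes the Fos-family protein Fra-2, had 6 peaks in a window of 420 kb, from 32240000 to 32660000 on chromosome 5, and none close to the approximate gene position. The density was 14.3 per Mb against 5.33 per Mb elsewhere on the chromosome, a ratio of 2.68. Of 354 tiles of 420 kb on chromosome 5, 50 (14.1%) held 6 or more, and 11.8% did over all chromosomes. The nearest peaks, from 32494502 to 32494604 (number 998) and 32501994 to 32502127 (number 267), lay 54.6 and 62.1 kb from the position on the high-coordinate side.

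On the low side of Fosl2, a pair with numbers 666 and 481 lay 2.99 kb apart, between 32332417 and 32335474, and number 1363 lay 154 kb away. The remaining peak had the lowest number of all 32. It was number 36 of chromosome 5, the 36th of 799, at 32639862 to 32640012, and lay 199.9 kb from the Fosl2 position and 20.1 kb inside the edge of the window. In the gene order of GRCm38.p6, Plb1 and Ppp1cb follow Fosl2 on that side. The peak was counted by position alone, and which gene it relates to was not determined.

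**Figure D2:**
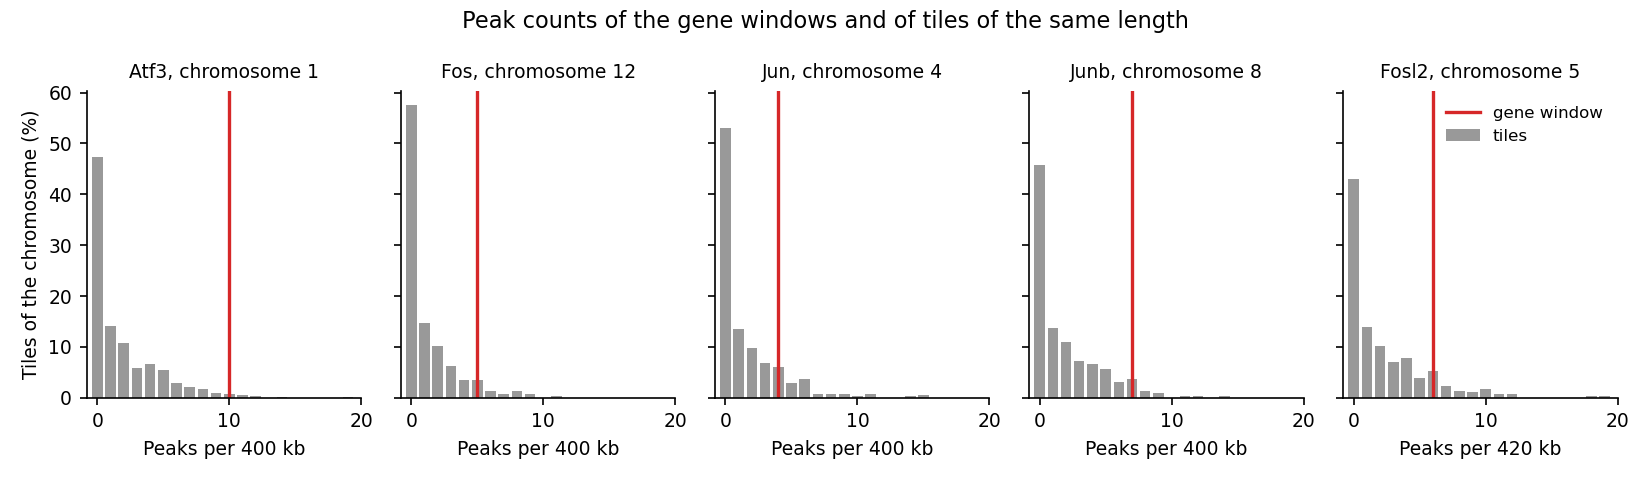
Peak counts of the 5 gene windows (red lines) and of end-to-end tiles of the same length on the same chromosome (grey bars). The horizontal axis is the number of peaks and the vertical axis the share of tiles in percent. Atf3, at 10 peaks, stands farther out than Jun, at 4, where 16.9% of tiles hold as many or more.

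Across the 5 windows, which cover 2.02 Mb, the density was 3.67 times that of the rest of their chromosomes. The ratio exceeded 1 in all 5, from 2.56 at Jun to 5.36 at Atf3, and without Atf3 it was 3.21. Since the loci were picked with these counts known, the ratios describe the choice as much as the genes. The rest of each chromosome also counts all positions, near genes or not. From 42.9% (chromosome 5) to 57.5% (chromosome 12) of the tiles on these chromosomes held no peak. Of the windows' edges, the closest peak inside was the Atf3 peak number 1634, 3.38 kb from the low edge, and the closest outside was number 665 of chromosome 5, 35.3 kb beyond the low edge of the Fosl2 window. At Fos the nearest peaks outside were 506 and 281 kb away, so the count there would be the same with edges moved out by less than these distances.

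A peak lay within 10 kb of the approximate gene position at 3 of the 5 loci, with 2 such peaks at Fos, 2 at Junb and 1 at Jun. Over the spans of these 5 chromosomes 7.15% of positions lay within 10 kb of a listed peak. That share counts all positions, near genes or not, and the loci were picked with their peaks known. The gene positions are themselves rounded to 10 kb and mark no stated point within each gene. The distances are therefore not distances to gene starts, and they do not show whether a peak lies in a promoter, an exon or an intron.

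Of the 32 peaks, 12 (37.5%) had another within 5 kb, against 23.2% of all listed peaks and 22.7% of those on the 5 chromosomes. The Atf3 window held 8 of the 12, Jun 2 and Fosl2 2, and Fos and Junb none. Without Atf3, which was selected for its close peaks, the share was 18.2%, 4 of 22 peaks. Within 1 kb of another were 8 peaks (25%), 6 at Atf3 and 2 at Jun, against 6.66% of the list. Close peaks count each other as neighbours and are not independent, so no interval is given. The median distance to the nearest peak was 6.50 kb at these loci and 18.6 kb over the list. The first value includes the Atf3 peaks, and it was not computed without them.

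Pooled over the loci, the name numbers of the 32 peaks lay both low and high among the listed numbers of their chromosomes. Their percentiles ran from 4.51 (Fosl2, number 36) to 98.9 (Fos, number 845), with a median of 55.3, and 16 lay in the lowest 50% of the numbers and 16 above. In the lowest 25% were 9 peaks (28.1%), against 24.9% of all listed peaks. In the lowest 10% were 3, numbers 60 and 79 at Atf3 and 36 at Fosl2, against 9.94% of all. The loci differed from each other, with medians of 29.3 at Atf3, 55.4 at Jun, 56.7 at Fosl2, 60.6 at Junb and 89.1 at Fos, but the ranges of all 5 overlapped.

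**Figure D3:**
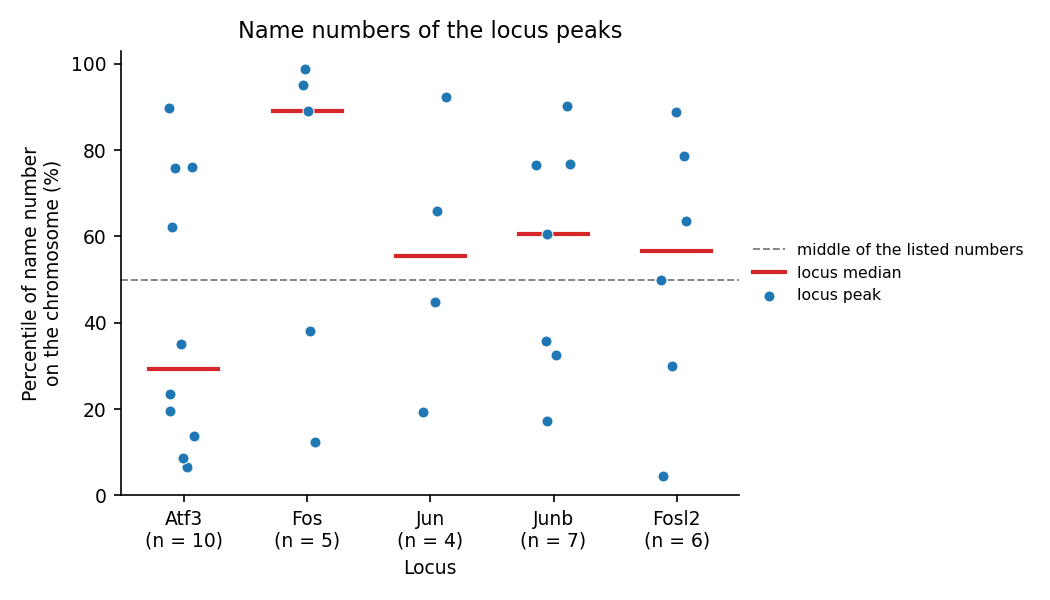
Percentile of the name number of each locus peak among the listed numbers of its chromosome, by locus. Points are peaks, red lines the locus medians and the dashed line the middle of the listed numbers. Atf3 has the lowest median, 29.3, and Fos the highest, 89.1, and every locus has peaks on both sides of the middle.

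Width was the one measure that the choice of loci did not use. The 32 intervals had a median width of 141.5 bp, against 143 bp in the rest of the list, and ranged from 39 to 160 bp where the list reached 166 bp. At Atf3 the median was 147.5 bp and no interval was narrower than 114 bp. Fos and Junb had medians of 144 and 143 bp. The medians were lower at Jun, 110 bp over 4 peaks, and Fosl2, 104 bp over 6 peaks, but the ranges of these loci, 41 to 146 bp and 39 to 151 bp, overlapped those of the others.

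Intervals of 83 bp or narrower numbered 3 of 32 (9.38%), against 9.11% of the list. They were the Fosl2 peak number 481 with 39 bp, the Jun peak number 1179 with 41 bp and the Junb peak number 236 with 74 bp, which is the peak 9.28 kb from the Junb position. In an overlap list the width of an interval need not be that of the whole binding site. Peaks of 1 list are not replicates, so the widths were not tested.

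**Figure D4:**
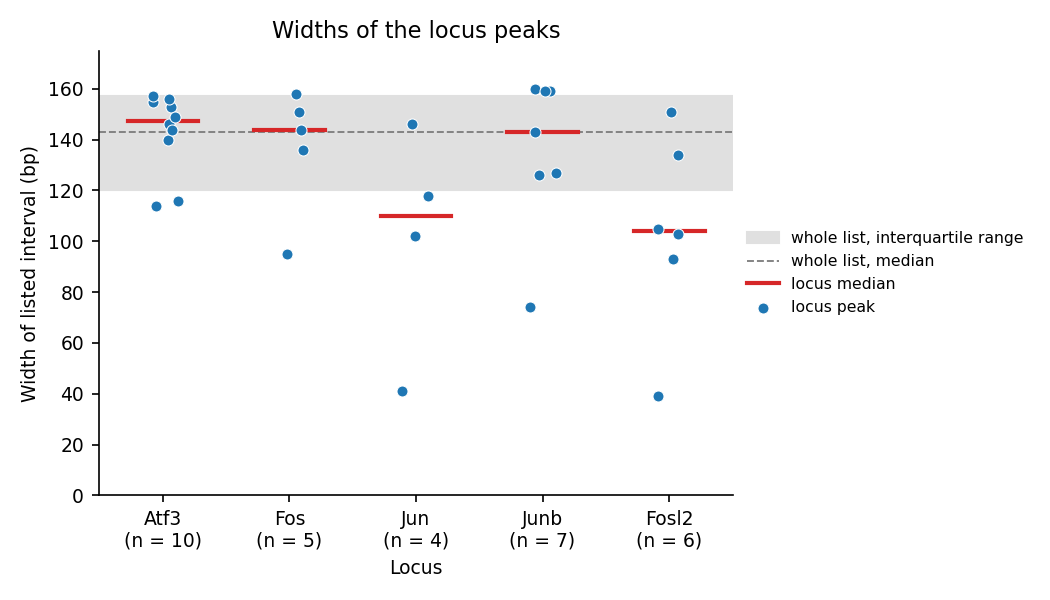
Width of each locus peak in bp, by locus. Points are peaks, red lines the locus medians, the dashed line the median of the whole list and the grey band its interquartile range, 120 to 157 bp. The Atf3 peaks lie between 114 and 157 bp, and 1 peak each at Jun, Junb and Fosl2 is 83 bp or narrower.

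Besides the 5 genes, 18 others of the AP-1, ATF, CREB and Maf families were looked up. In the GRCm38.p6 gene order, 3 of the 18 (Batf3 near Atf3, and Jdp2 and Batf near Fos) stood within 5 genes of a member on either side. The other 15, among them Jund, Fosb and Fosl1, were not placed on mm9 and their peaks were not counted.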

How the data were processed

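ChIP-seq was done on Gata6 (2 libraries, 2 antibodies), with 1 Flag control library and 1 input library. The deposited table is 1 list of 12137 intervals for the whole series, so no value per library was used. BWA, HOMER and build mm9 appear in the submitters' processing notes, without versions. The lists that were intersected, the threshold and the part of the controls are not stated there. In the list deposited by the authors the score is 0 in every row, so peak strength is unknown, as is sequencing depth.

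Peaks were assigned to windows by midpoint, and positions are given 1-based. Density ratios compare a window with the rest of its chromosome, from the first to the last listed peak. Tiles of 400 kb (420 kb for Fosl2) were laid end to end along each chromosome. They include those that overlap the gene windows. Shares are given without a confidence interval, since peaks of the same list are not replicates. No test was made, since the members and lists were chosen with earlier results of these data known. All peaks of the 5 windows are accounted for. Alternatives were a narrower window, wider intervals only, merged close peaks, lower name numbers only, other distances and other backgrounds. Promoter sequences are those of RefSeq, build GRCm38.p6, and all 5 genes matched. Gene order came from the RefSeq gene table of the same build. Python 3.11.15, NumPy 2.4.6, pandas 2.3.3, SciPy 1.17.1 and matplotlib 3.10.9 were used, and the counting was checked on simulated peaks.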

Additional observations from a re-analysis of the deposited data

How the results depend on the processing

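No paired analysis was possible because the list holds no values per library, and for the same reason no library could be left out. The peak count of 32 became 21 within 100 kb of the gene positions and 16 in the lowest 50% of the name numbers, both smaller by construction. The density ratio of 3.67 ranged from 3.21 (without the Atf3 locus, a setting chosen after the data were seen) to 4.87 (within 100 kb), but was 10.5 against the median of tiles, with or without a shift of 200 kb, since the median tile held fewer peaks than the mean tile on all 5 chromosomes and was empty on chromosomes 4 and 12. The share with a neighbour depended on the distance: it was 25% within 1 kb against 6.66% over the whole list, 37.5% within 5 kb against 23.2%, and 65.6% within 20 kb against 51.4%. Within 5 kb it was 18.2% without the Atf3 locus and 47.6% within 100 kb of the gene positions. The median percentile of the name numbers, 55.3, was 38.0 within 100 kb of the gene positions and 62.0 without the Atf3 locus, and became 24.2 when numbers were divided by the highest of the chromosome, where the whole list had 22.2. The median width of 141.5 bp ranged from 130.5 bp (without the Atf3 locus) to 144 bp (intervals wider than 83 bp). Depth, which is unknown here, limits which sites reach the list.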

Other observations

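The name numbers in these windows do not run simply with position. Numbers 1069 and 1070 of chromosome 1 both lay in the Atf3 window but 162 kb apart, with 6 peaks of other numbers between them. Numbers 704 and 705 of chromosome 8 lay 5.49 kb apart as direct neighbours in the Junb window. Number 666 of chromosome 5 lay in the Fosl2 window, 128 kb from number 665, which lay just outside it.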
